A study of Mus musculus with 18 samples.

Results

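The Toll-like receptor transcripts of the mouse spleen are described here, taken as the rows of the deposited expression table whose gene symbol is Tlr1, Tlr2, Tlr3, Tlr4, Tlr5, Tlr6, Tlr7, Tlr8, Tlr9 or Tlr13. All 10 were found among the 19320 genes of the table, and all 10 passed the filter on low values, which left 12905 genes for testing. Levels are given as RPKM, read numbers divided by gene length and scaled to the mapped reads of each library, which allows comparison between genes. Comparison between libraries also depends on the scaling, since the make-up of the libraries differed as described below. The study asked whether gut microbiota shaped by alginate oligosaccharide (AOS), a short sugar chain, change tissues of mice made diabetic with streptozotocin (STZ), a toxin of the insulin-producing cells of the pancreas.

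Spleens came from ICR mice, an outbred strain, aged 10 weeks, with 3 libraries in each of 6 groups. Con animals had a regular diet and saline, A10 animals were dosed with AOS (10 mg per kg), STZ animals with streptozotocin, and STZ-A10 animals with both agents. The A10-FMT animals received streptozotocin and a transplant of microbiota from donors dosed with AOS, and Con-FMT animals received streptozotocin and microbiota from control donors. Both transplant groups thus carried the diabetes model as well as the inoculum. In the study's methods, donor gut contents were pooled within each donor group, so each transplant group stands for a single inoculum. The methods describe males in the Con, STZ and both transplant groups. The A10 and STZ-A10 groups are known here from the labels alone. Nothing in the labels says that libraries within a group came from different mice, so the p-values below measure only the spread between these samples, which may be technical.

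Toll-like receptors are membrane proteins of the innate immune system that bind conserved molecules of microbes. Those at the cell surface read cell wall and flagellar components, whereas those in endosomes read nucleic acids. Binding recruits the adaptors Myd88 or Ticam1. From Myd88 the signal passes through Irak kinases and Traf6, and both adaptors lead to NF-kappa-B and interferon regulatory factors. In the spleen these receptors are known from B cells, macrophages and dendritic cells.

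On GRCm38, all 10 members are annotated as protein coding genes. Tlr1 (chr5:64924679-64933563) and Tlr6 (chr5:64952031-64960097) lie on the minus strand, 18467 bases apart. Tlr8 (chrX:167242696-167264329) and Tlr7 (chrX:167304929-167330558) also lie on the minus strand, 40599 bases apart. Tlr2 (chr3:83836272-83841767) and Tlr3 (chr8:45395665-45411080) are on the minus strand. The plus strand holds Tlr4 (chr4:66827584-66930284), Tlr5 (chr1:182954788-182976044), Tlr9 (chr9:106222598-106226883) and Tlr13 (chrX:106143204-106160493). Tlr1 and Tlr6 share sequence. Of the 2991 windows of 35 bases in the Tlr1 transcript, 567 (19.0%) occur in that of Tlr6, and these are 15.6% of the 3643 windows of Tlr6. The other 88 of 90 ordered pairs of members shared no such window. Reads from the shared stretches could be counted for either gene, so the separate levels of Tlr1 and Tlr6 are uncertain.

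To show where transcription of contrasting members starts, sequence before the gene is given for 4 of the 8 members with a promoter window in the reference, the 250 bases before a RefSeq start site (GRCm38.p6). Tlr4 and Tlr7 had none. RefSeq starts need not be the start annotated by GENCODE, so only the bases before the annotated gene are printed, which are all 250 for Tlr5 and Tlr9, 245 for Tlr1 and 91 for Tlr2, whose other 159 bases lie inside the gene. Tlr1 is shown as the highest member, Tlr5 as the lowest, Tlr9 as the member with the largest difference in A10-FMT against STZ, and Tlr2 as the partner that pairs with Tlr1 and Tlr6. Each runs 5′ to 3′ on the strand of its gene, and capitals mark the motifs described next.
Tlr1 (chr5:64933564-64933808, minus strand): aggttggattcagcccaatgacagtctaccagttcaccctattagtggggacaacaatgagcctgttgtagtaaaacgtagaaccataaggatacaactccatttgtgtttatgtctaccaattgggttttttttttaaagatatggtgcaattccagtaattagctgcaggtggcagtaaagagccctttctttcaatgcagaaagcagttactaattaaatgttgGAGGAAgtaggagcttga
Tlr2 (chr3:83841768-83841858, minus strand): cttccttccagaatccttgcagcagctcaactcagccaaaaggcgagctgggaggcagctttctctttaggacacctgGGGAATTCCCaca
Tlr5 (chr1:182954538-182954787, plus strand): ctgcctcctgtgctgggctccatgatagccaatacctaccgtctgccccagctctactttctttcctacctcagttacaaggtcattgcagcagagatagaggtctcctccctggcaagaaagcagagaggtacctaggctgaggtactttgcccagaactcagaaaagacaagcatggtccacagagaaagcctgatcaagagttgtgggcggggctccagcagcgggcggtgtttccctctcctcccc
Tlr9 (chr9:106222348-106222597, plus strand): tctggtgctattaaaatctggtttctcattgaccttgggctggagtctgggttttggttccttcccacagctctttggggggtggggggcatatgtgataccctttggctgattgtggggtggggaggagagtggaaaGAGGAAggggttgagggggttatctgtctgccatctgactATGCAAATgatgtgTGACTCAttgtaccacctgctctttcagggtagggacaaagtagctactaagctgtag

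The motifs were chosen after the windows had been seen and were searched on both strands. GAGGAA, a core read by the myeloid and B cell factor PU.1, begins 18 bases before the annotated start of Tlr1 and 112 bases before that of Tlr9, and it also lies in the windows of Tlr8 and Tlr13. It occurs in 23.3% of 32851 promoter windows of the same length, so a match is common. Tlr1 has a second RefSeq start whose window lies wholly inside the annotated gene and holds none of the motifs. The Tlr9 window also holds the octamer ATGCAAAT 72 bases before the start, found in 1.6% of windows, and the AP-1 site TGACTCA 58 bases before it, found in 4.46%. In the Tlr2 window the kappa-B letters GGGAATTCC match on both strands in overlapping positions, 13 and 12 bases before the annotated start, and 0.21% of windows hold them. No capital stands in the Tlr5 window, which says only that these letters are not in it. The matches are descriptions of the letters, not of binding.

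The libraries differed in make-up. Globin genes took 10.4% of the summed RPKM in STZ replicate 1 and 42.7% in A10-FMT replicate 3, the lowest and highest shares. A10-FMT replicate 3 also stood apart in its lymphocyte transcripts. The 7 B cell markers summed to 532 RPKM there and to 1282 to 2525 in the other libraries, and the 6 T cell markers in the table to 48.8 against 119 to 269. None of the markers in either list was at 0 in every library. The 7 liver markers summed to 83.9 to 331 RPKM in A10-FMT, 5.07 to 6.2 in STZ and 7.96 to 36.2 in Con-FMT. These ranges did not overlap each other. The Con range of 19.0 to 222 RPKM overlapped that of A10-FMT, and the sums were 13.6 to 68.9 in A10 and 4.49 to 13.2 in STZ-A10. The 7 exocrine pancreas markers peaked at 14294 in A10-FMT replicate 2 and 8 neutrophil markers at 14778 in Con replicate 1. The 4 kidney markers summed to 13.7 to 26.6 in the 6 Con and STZ libraries and to 0 to 0.75 in the other 12. Nearly all of the sum in Con and STZ was a single gene, Kap, with means of 18.1 and 23.5 RPKM. Kap was also the only gene past the adjusted threshold in limma in A10 against Con and in STZ-A10, A10-FMT and Con-FMT against STZ. This trace moves with the Con and STZ groups against the rest. What it marks cannot be told apart from the treatments in comparisons across that line. In whole spleen, fewer cells of a type and less RNA per cell cannot be told apart.

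The receptors covered a wide range of levels. Tlr1 was the highest, with a mean of 52.0 RPKM over 18 libraries (percentile 87.5 of all genes tested), and was above Tlr7 in 18 of 18 libraries. Tlr7 (14.4 RPKM), Tlr9 (10.6) and Tlr6 (8.77) followed, each above the next in 17, 17 and 18 of 18 libraries respectively. Tlr3 (6.25 RPKM), Tlr2 (5.41) and Tlr13 (5.33) did not separate, since Tlr3 exceeded Tlr2 in 12 and Tlr2 exceeded Tlr13 in 11 of 18 libraries. Tlr4 (3.55 RPKM), Tlr8 (2.11) and Tlr5 (0.867) were lowest, and each lay below its upper neighbour in 18 of 18 libraries. Within groups, the ranges of neighbours were free of overlap in all 6 groups for Tlr1 over Tlr7, Tlr13 over Tlr4 and Tlr4 over Tlr8, in 5 groups for Tlr8 over Tlr5, and in 2 or fewer for every other neighbouring pair. The most frequent low non-zero value of 179 olfactory receptor genes was taken to stand for a single read per kilobase. If so, an RPKM of 1 corresponds to roughly 11.1 to 12.5 reads per kilobase. Tlr5, the lowest member on average, thus had the fewest reads per kilobase, down to 0.24 RPKM in A10-FMT replicate 3.

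**Figure D1:**
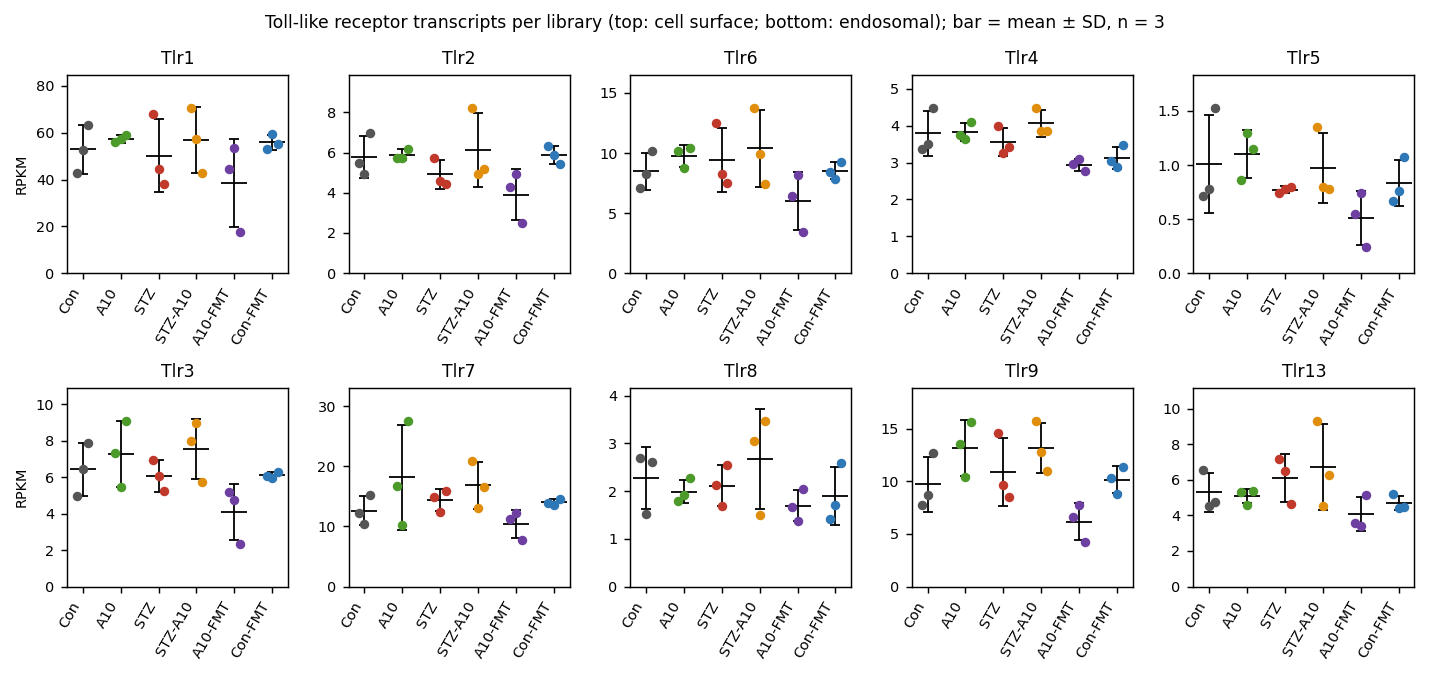
RPKM of each receptor (vertical axes, linear from 0) in the 3 libraries of each group (coloured points), with the group mean and SD in black. The upper panels hold the cell surface receptors and the lower panels the endosomal ones. A10-FMT has the lowest group mean in all 10 panels, and its spread for Tlr1 runs from 17.5 to 53.7 RPKM. How many of all genes have their lowest mean there was not counted. Of all genes tested, 72.3% were lower in A10-FMT than in STZ and 71.0% lower than in Con-FMT.

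Tlr1 and Tlr6 each pair with Tlr2 to bind bacterial lipopeptides. Tlr1 measured 42.6, 52.8 and 63.2 RPKM in Con, 55.9, 57.1 and 59.2 in A10, 67.9, 44.4 and 38.2 in STZ, and 70.7, 57.1 and 42.8 in STZ-A10. It measured 44.4, 53.7 and 17.5 in A10-FMT and 53.1, 59.3 and 55.1 in Con-FMT. The 17.5 of A10-FMT replicate 3 was the lowest value of Tlr1, and the other A10-FMT libraries lay inside the STZ range. Tlr2 measured 5.49, 4.91 and 6.96 RPKM in Con, 5.75, 5.74 and 6.19 in A10, 5.75, 4.59 and 4.43 in STZ, and 8.23, 4.91 and 5.18 in STZ-A10. In A10-FMT it measured 4.29, 4.93 and 2.49 against 6.31, 5.87 and 5.44 in Con-FMT, and these transplant groups did not overlap. Tlr6 measured 7.08, 8.25 and 10.1 RPKM in Con, 10.2, 8.73 and 10.4 in A10, 12.5, 8.28 and 7.49 in STZ, and 13.8, 9.95 and 7.41 in STZ-A10. Its A10-FMT values of 6.43, 8.18 and 3.43 RPKM overlapped those of STZ and, at the upper end, the 8.45, 7.86 and 9.27 of Con-FMT.

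Tlr4 binds bacterial lipopolysaccharide together with Ly96. It varied little, with 3.37, 3.51 and 4.49 RPKM in Con, 3.76, 3.64 and 4.11 in A10, 3.98, 3.26 and 3.42 in STZ, and 4.49, 3.86 and 3.85 in STZ-A10. The A10-FMT libraries held 2.96, 3.09 and 2.77 and the Con-FMT libraries 3.03, 2.89 and 3.47, so the transplant groups overlapped each other, and the A10-FMT values lay below all STZ values. Tlr5 binds flagellin, the subunit of bacterial flagella. It was near the floor of the table at 0.71, 0.78 and 1.53 RPKM in Con, 0.86, 1.30 and 1.15 in A10, 0.74, 0.78 and 0.80 in STZ, and 1.35, 0.80 and 0.78 in STZ-A10. The transplant groups held 0.55, 0.74 and 0.24 (A10-FMT) and 0.67, 0.76 and 1.07 (Con-FMT), and they overlapped.

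Among the endosomal receptors, Tlr3 binds double-stranded RNA. Its values were 4.96, 6.45 and 7.85 RPKM in Con, 7.31, 5.44 and 9.08 in A10, 6.93, 6.04 and 5.22 in STZ, and 7.96, 8.95 and 5.72 in STZ-A10. In A10-FMT they were 5.19, 4.77 and 2.31, all below the STZ values and below the 6.07, 5.94 and 6.30 of Con-FMT. Tlr7 and Tlr8 bind single-stranded RNA. Tlr7 measured 12.3, 10.4 and 15.2 RPKM in Con, 16.7, 10.3 and 27.6 in A10, 14.9, 12.3 and 15.8 in STZ, and 20.9, 13.1 and 16.5 in STZ-A10. The Tlr7 values in A10-FMT (11.3, 12.3 and 7.80) lay below those in Con-FMT (13.9, 13.5 and 14.6) without overlap. The A10 group had the widest range of Tlr7. Tlr8 measured 2.69, 1.52 and 2.60 RPKM in Con, 1.79, 1.91 and 2.27 in A10, 2.12, 1.69 and 2.54 in STZ, and 3.05, 1.49 and 3.47 in STZ-A10. With 1.67, 1.38 and 2.04 in A10-FMT and 1.42, 1.70 and 2.58 in Con-FMT, Tlr8 overlapped between all pairs of groups compared.

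Tlr9 binds unmethylated CpG DNA of bacteria and viruses. It measured 7.72, 8.75 and 12.7 RPKM in Con, 13.6, 10.4 and 15.6 in A10, 14.6, 9.62 and 8.56 in STZ, and 15.8, 12.8 and 10.99 in STZ-A10. Con-FMT held 10.3, 8.79 and 11.4. All 3 A10-FMT libraries (6.58, 7.71 and 4.23) lay below every library of the other groups, narrowly so for the 7.71 beside the 7.72 of Con. How many of all genes do the same was not counted, so this is no trait of Tlr9. Tlr13 binds bacterial ribosomal RNA. Its RPKM was 6.57, 4.53 and 4.78 in Con, 5.30, 4.61 and 5.37 in A10, 7.19, 6.50 and 4.62 in STZ, and 9.32, 4.55 and 6.28 in STZ-A10. Tlr13 stood at 3.60, 3.42 and 5.17 in A10-FMT and 5.18, 4.44 and 4.48 in Con-FMT, and here A10-FMT replicate 3 was the highest of its group. Over all 18 libraries, A10-FMT replicate 3 held the lowest value of 8 members and A10-FMT replicate 2 that of the other 2, while STZ-A10 replicate 1 held the highest value of 5. The same count was not taken over all genes, so these are no trait of the receptors. The median log2(RPKM + 1) of all genes tested was lowest in A10-FMT replicate 3 (3.32) and highest in STZ-A10 replicate 1 (3.77).

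**Figure D2:**
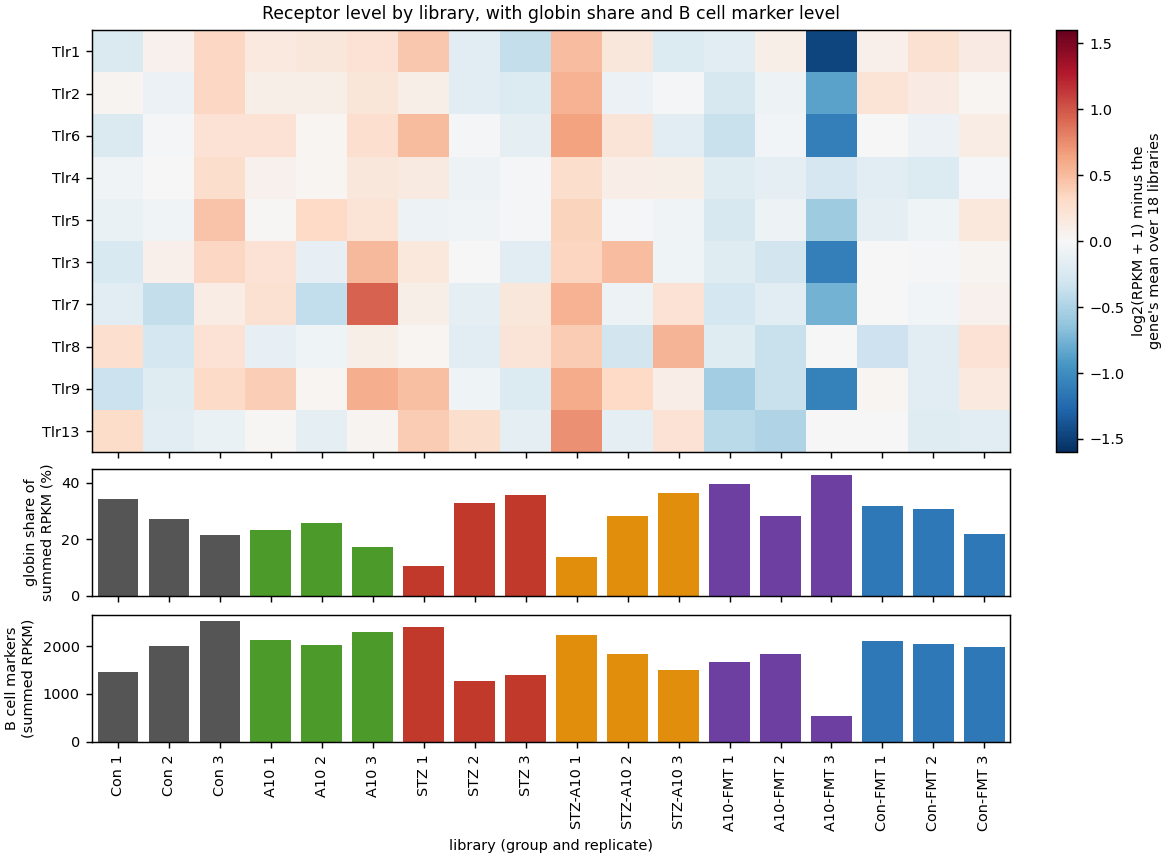
Upper panel, log2(RPKM + 1) of each receptor (rows) in each library (columns) minus the receptor's mean over 18 libraries. Lower panels, the globin share of summed RPKM in percent and the summed RPKM of 7 B cell markers, coloured by group. The darkest column is A10-FMT replicate 3, where the globin share was 42.7% and the B cell marker sum 532.

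The comparison of A10-FMT with STZ asks what the microbiota of AOS-dosed donors change in diabetes. Every receptor was lower on average in A10-FMT, but 0 of 10 passed the adjusted threshold of 0.05 in limma, where 0.00775% of all genes tested did. Tlr9 had the largest difference, with 6.17 ± 1.78 RPKM in A10-FMT and 10.9 ± 3.21 in STZ (SD, n = 3). On the log2(RPKM + 1) scale, used for every fold change here, it stood at -0.73 ± 0.23 (SE). Its unadjusted p in limma was 0.00631 and its adjusted p 0.227. Tlr6 (-0.60 ± 0.25, 6.01 against 9.42 RPKM), Tlr3 (-0.52 ± 0.23, 4.09 against 6.06 RPKM) and Tlr13 (-0.49 ± 0.21, 4.06 against 6.10 RPKM) also reached an unadjusted limma p under 0.05, at 0.0287, 0.0396 and 0.0327. These 4 members, read against 15.2% of all genes lower and 1.95% higher at the same unadjusted threshold, comprised Tlr6 of the surface receptors and 3 endosomal ones. Tlr1 (-0.47 ± 0.31), Tlr7 (-0.44 ± 0.26), Tlr2 (-0.30 ± 0.20), Tlr5 (-0.25 ± 0.17), Tlr8 (-0.21 ± 0.22) and Tlr4 (-0.21 ± 0.11) did not reach it. For Tlr3, Tlr4, Tlr7 and Tlr9 all A10-FMT libraries lay below all STZ libraries, as for 12.1% of all genes.

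The whole transcriptome was displaced in the same direction. The median log2 fold change of the 10 members was -0.46, while that of all genes tested was -0.15, with 72.3% of genes negative, so the receptors stood at -0.31 relative to the general shift. Aligning the libraries on their medians reduced the members' median to -0.28 and 2 members (Tlr6 and Tlr9) at an unadjusted p under 0.05, and quantile normalization gave -0.27 and the same 2. Quantile normalization also turned Tlr4 to 0.015. Removing 10 globin genes and rescaling gave -0.40 with the same 4 members. Without A10-FMT replicate 3 the members' median was -0.25, 9 of 10 were negative, Tlr1 stood at 0.0025, and Tlr9 (-0.52) and Tlr13 (-0.64) remained under an unadjusted p of 0.05. Leaving out STZ replicate 1, the library with the lowest globin share, left Tlr9 as the single member at that threshold, and leaving out STZ replicate 2 left Tlr6 and Tlr9. A fit of only the groups compared, which takes no spread from the other groups, also left Tlr9 alone, beside 4.27% of all genes lower. At the same threshold, median centring had 5.56% of all genes lower, quantile normalization 7.21% and globin removal 13.9%. Leaving out A10-FMT replicate 3 gave 6.13%, STZ replicate 1 4.98% and STZ replicate 2 12.0%. In A10-FMT against STZ, the B cell markers had a median log2 fold change of -0.44 (6 of 7 negative, summed range 532 to 1829 against 1282 to 2393 RPKM), the T cell markers -0.48 (6 of 6 negative) and the red pulp macrophage markers -0.49 (6 of 7 negative), whereas the erythroid markers stood at 0.81. The monocyte markers (-0.27, 5 of 6 negative) and conventional dendritic cell markers (-0.25, 6 of 6 negative) were also mostly lower, and the liver markers stood at 3.22 (1 of 7 negative). The plasmacytoid dendritic cell markers had a median of -0.25 with 5 of 6 negative, and their sums overlapped (76.1 to 289 against 95.1 to 193 RPKM). The neutrophil markers were mostly higher (0.56, 1 of 8 negative). The part of these in the receptor values was not tested.

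**Figure D3:**
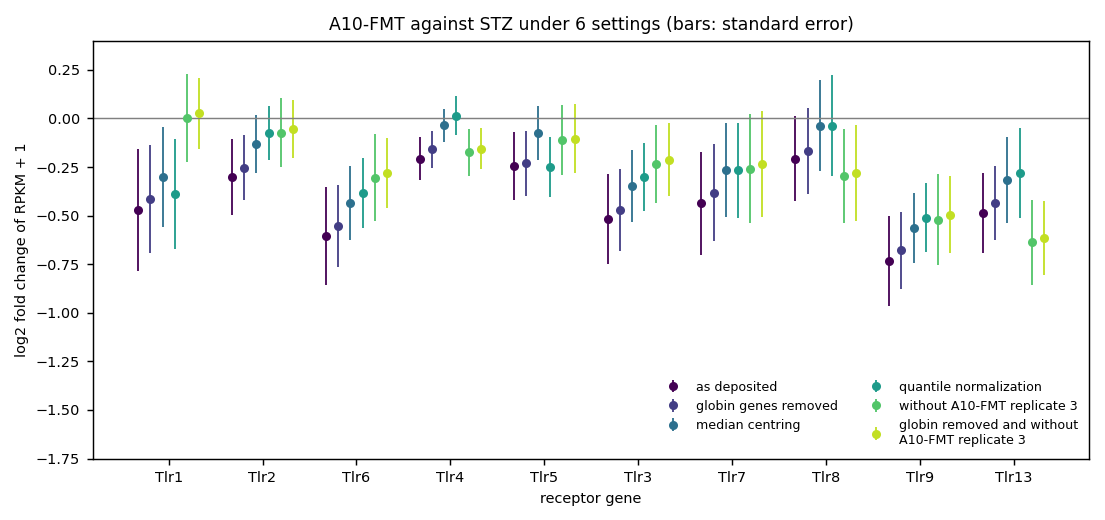
Log2 fold change of RPKM + 1 (vertical axis) of each receptor in A10-FMT against STZ under 6 settings (colours), with standard errors. Tlr9 lies between -0.73 and -0.50 under the settings drawn, whereas Tlr1 moves from -0.47 to 0.027 once A10-FMT replicate 3 is left out and globin genes are removed.

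Con-FMT against STZ is the control for the transplant itself, and it shares its STZ libraries with the comparison above. Here 0 of 10 receptors passed the adjusted threshold in limma, beside 0.00775% of all genes, and 0 reached an unadjusted p under 0.05, beside 2.58% of genes lower and 2.66% higher. The fold changes were small and of both signs, from -0.30 ± 0.21 for Tlr13 (4.70 against 6.10 RPKM) to 0.22 ± 0.20 for Tlr2 (5.87 against 4.92 RPKM). Tlr9 stood at -0.07 ± 0.23 with a 95% interval of -0.56 to 0.42, and Tlr1 at 0.19 ± 0.31 with an interval of -0.48 to 0.86, so moderate differences in either direction remain possible. The median of the members was -0.05 and that of all genes 0.0016. The sign of the members' median was not stable, with 0.06 without STZ replicate 1 and 0.01 without Con-FMT replicate 2.

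A10-FMT against Con-FMT compares the donors directly. Again 0 of 10 receptors passed the adjusted threshold in limma, as did 0% of all genes. In A10-FMT 10 of 10 were lower, beside 71.0% of all genes. Tlr9 (6.17 ± 1.78 against 10.2 ± 1.30 RPKM, SD, n = 3) had a log2 fold change of -0.66 ± 0.23, Tlr3 (4.09 ± 1.56 against 6.10 ± 0.18) of -0.53 ± 0.23 and Tlr2 (3.90 ± 1.27 against 5.87 ± 0.44) of -0.52 ± 0.20. Their unadjusted limma p-values were 0.0115, 0.0349 and 0.0173, with adjusted p of 0.204, 0.206 and 0.204. These were 3 of 10 members, beside 20.1% of all genes lower and 3.49% higher, and 4 members (Tlr2, Tlr3, Tlr7 and Tlr9) were lower without overlap of libraries, beside 23.9% of genes. Tlr1 (-0.67 ± 0.31) missed the unadjusted threshold in limma. Tlr4 (-0.07 ± 0.11), Tlr8 (-0.09 ± 0.22) and Tlr13 (-0.18 ± 0.21) were nearest to 0. The median of the members was -0.46 and that of all genes -0.17.

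This comparison turned on single libraries. Without A10-FMT replicate 3 the members' median was -0.22 and 0 of 10 reached an unadjusted p under 0.05. Without A10-FMT replicate 2, the library rich in pancreas transcripts, Tlr1 (-0.97), Tlr2 (-0.68) and Tlr9 (-0.82) passed the adjusted threshold in limma at 0.0438, 0.039 and 0.0392, together with 2625 of all genes. Leaving out Con-FMT replicate 1 left 1 member (Tlr9) at an unadjusted p under 0.05, and leaving out Con-FMT replicate 2 or 3 left 2 (Tlr2 and Tlr9). A fit of only the groups compared gave 3 members (Tlr2, Tlr7 and Tlr9), beside 7.96% of all genes lower. At the same threshold 2.83% of all genes were lower without A10-FMT replicate 3. Without Con-FMT replicate 1, 2 or 3 the share was 13.2%, 10.8% or 11.4%. Median centring gave a median of -0.28 and turned Tlr4 to 0.11, and quantile normalization gave -0.25 and turned Tlr4 to 0.17. All 7 B cell markers were lower in A10-FMT than in Con-FMT with a median of -0.77 (summed range 532 to 1829 against 1980 to 2114 RPKM), and all 6 T cell markers with a median of -0.97 (48.8 to 189 against 203 to 226 RPKM). The 6 conventional dendritic cell markers (median -0.49) were lower in sum without overlap as well (25.8 to 43.7 against 45.4 to 51.6 RPKM). Monocyte markers had a median of -0.42 with 4 of 6 negative (106 to 152 against 123 to 192 RPKM). Red pulp macrophage markers had a median of -0.19 (327 to 453 against 434 to 568 RPKM). Plasmacytoid dendritic cell markers had a median of -0.41 with 6 of 6 negative (76.1 to 289 against 126 to 166.5 RPKM). Erythroid markers stood at 0.56, neutrophil markers at 0.19 (1 of 8 negative) and liver markers at 2.31. Whether the receptor values follow any of these was not tested.

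**Figure D4:**
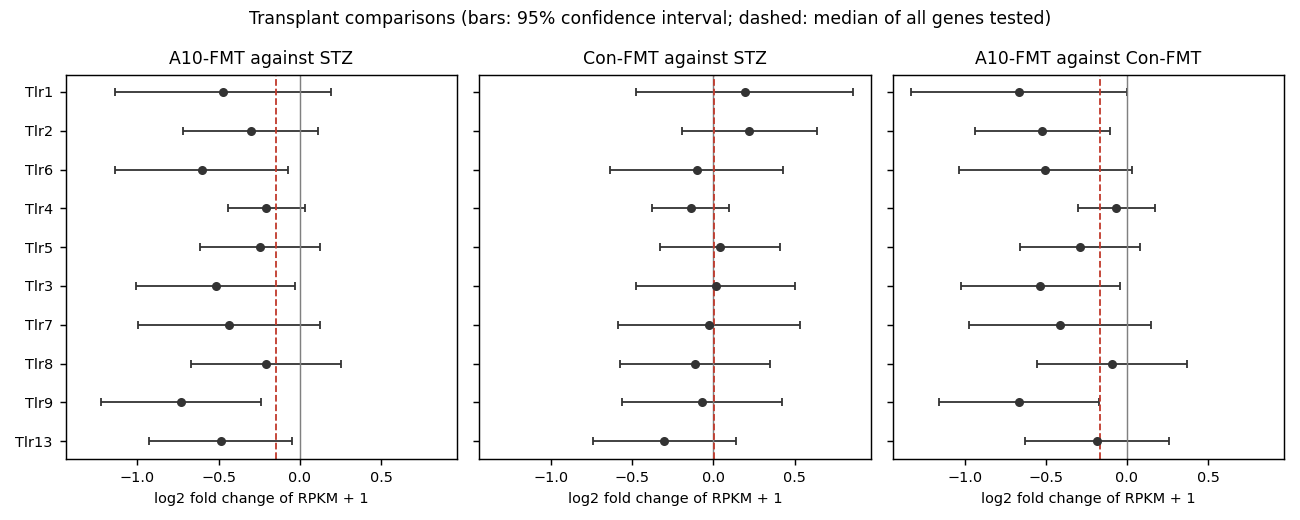
Log2 fold change of RPKM + 1 (horizontal axis) of each receptor in the 3 transplant comparisons, with 95% confidence intervals and the median of all genes tested as a dashed line. All 10 points lie left of 0 in both A10-FMT panels, against 6 of 10 in Con-FMT against STZ. Of all genes tested, 72.3% were negative in A10-FMT against STZ, 71.0% in A10-FMT against Con-FMT and 49.6% in Con-FMT against STZ.

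The remaining comparisons ask what diabetes and AOS feeding do without a transplant. In STZ against Con, 0 of 10 receptors passed the adjusted threshold in limma, beside 0.163% of all genes, and 0 reached an unadjusted p under 0.05, beside 6.44% of genes lower and 4.63% higher. The fold changes ran from -0.19 ± 0.20 for Tlr2 to 0.18 ± 0.26 for Tlr7, with 6 negative, beside 52.4% of all genes, and a median of -0.06. The sign of that median rested on single libraries, as it was 0.06 without Con replicate 3, 0.01 without STZ replicate 2 and 0.05 without STZ replicate 3.

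AOS alone (A10 against Con) gave 0 of 10 at the adjusted threshold in limma, beside 0.00775% of all genes, and 0 at an unadjusted p under 0.05, beside 1.68% of genes lower and 3.56% higher. Tlr9 (13.2 ± 2.64 against 9.72 ± 2.62 RPKM) and Tlr7 (18.2 ± 8.73 against 12.6 ± 2.38 RPKM) had the largest values, 0.41 ± 0.23 and 0.40 ± 0.26. The median of the members was 0.11 and that of all genes 0.05. Without A10 replicate 3, where Tlr7 stood at 27.6 RPKM, the members' median was 0.03. Leaving out Con replicate 1 gave 0.0051, and leaving out Con replicate 3 gave 0.27. The 6 markers of plasmacytoid dendritic cells, a cell type known for Tlr7 and Tlr9, summed to 161 to 314 RPKM in A10, highest in replicate 3, and to 114 to 131 in Con. Most of that sum was Bst2, a gene that interferon also induces (101 to 241 RPKM in A10 against 64.8 to 84.2 in Con). The defining marker Siglech measured 11.4 to 18.9 RPKM against 7.26 to 10.3. Over the 6 markers the median log2 fold change was 0.32, and 1 of 6 was negative. In limma 1 of 6 was higher and 0 lower at an unadjusted p under 0.05, and 0 passed the adjusted threshold. The part of these markers in the Tlr7 value was not tested.

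AOS in diabetes (STZ-A10 against STZ) gave 10 of 10 positive fold changes, from 0.09 ± 0.21 for Tlr13 to 0.27 ± 0.23 for Tlr9, with a median of 0.20 against 0.03 for all genes. Of all genes, 41.3% were negative here. None passed, with 0 of 10 at the adjusted threshold in limma, beside 0.00775% of all genes, and 0 at an unadjusted p under 0.05, beside 1.65% lower and 1.28% higher. Without STZ-A10 replicate 1, which held the highest value of 5 members and a globin share of 13.7%, the median was 0.04 and 2 members turned negative. Whether AOS acted differently in diabetic and other animals was asked by the interaction of STZ and AOS. There 0 of 10 receptors and 0% of all genes passed the adjusted threshold in limma. At an unadjusted p under 0.05 stood 0 receptors, beside 369 of the 12905 genes tested. The largest interaction among the receptors was 0.31 ± 0.31 for Tlr8.

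The partner list of 61 genes of the pathway, of which 56 were tested, shows what surrounds the receptors. In A10-FMT against STZ, 0 of 56 passed the adjusted threshold in limma, and 14 (25%) were lower and 0 higher at an unadjusted p under 0.05, read against the 15.2% and 1.95% of all genes given above. The lower genes comprised 4 of 15 kinases and ligases, 3 of 9 transcription factors, 2 of 6 negative regulators, both other receptors, and 1 each among accessory, trafficking and response genes, with none of 4 adaptors. Lgmn, an endosomal protease that processes receptors such as Tlr9, had the smallest p in limma (0.00148, adjusted 0.151), with 50.0, 56.7 and 47.0 RPKM in A10-FMT against 82.8, 81.2 and 67.4 in STZ (-0.58 ± 0.15). Tnfaip3, a deubiquitinase that restrains NF-kappa-B, stood at 8.82, 11.7 and 4.74 RPKM against 13.7, 12.4 and 12.6 (-0.63 ± 0.22). Both genes were lower in every A10-FMT library than in any STZ library, as were 12.1% of all genes. Traf6, the ubiquitin ligase downstream of Irak kinases, stood at 7.59, 8.65 and 7.45 RPKM against 11.4, 9.98 and 9 (-0.32 ± 0.12). Tlr11, a receptor of the parasite protein profilin, stood at 1.93, 1.80 and 1.21 RPKM against 2.2, 2.42 and 2.78 (-0.40 ± 0.15). Leaving out A10-FMT replicate 3 reduced the 14 to 4, leaving out STZ replicate 1 to 3 and leaving out A10 replicate 3 to 9, while leaving out A10-FMT replicate 2 raised them to 30. Median centring left 2 lower and 2 higher, and quantile normalization 5 and 1. A fit of only the groups compared left 2 lower and 0 higher.

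In A10-FMT against Con-FMT, 0 of 56 passed the adjusted threshold in limma, and 23 (41.1%) were lower and 0 higher at an unadjusted p under 0.05, read against 20.1% and 3.49% of all genes. They comprised 6 of 9 transcription factors, 4 of 6 negative regulators, 4 of 15 kinases and ligases, 2 of 4 adaptors, 2 of 6 trafficking genes, 2 of 8 response genes, 1 of 6 accessory genes and both other receptors. Tlr12, which works with Tlr11, stood at 1.97, 2.37 and 1.02 RPKM in A10-FMT against 3.40, 3.44 and 3.28 in Con-FMT (-0.68 ± 0.20). Ticam2, the adaptor that carries the Tlr4 signal to Ticam1, stood at 2.14, 2.45 and 1.67 RPKM against 3.04, 3.45 and 3.03 (-0.44 ± 0.13). Neither gene overlapped between the transplant groups, where 23.9% of all genes were lower without overlap. Irak4, the first kinase after Myd88, stood at 5.96, 7.78 and 5.40 RPKM against 7.63, 9.09 and 11.6 (-0.50 ± 0.16), and Tlr11 stood at -0.46 ± 0.15. Without A10-FMT replicate 3 the 23 fell to 4, without Con-FMT replicate 1 to 10 and without Con-FMT replicate 2 to 15. Without A10-FMT replicate 2, 23 passed the adjusted threshold, beside 2625 of all genes. Median centring gave 14 lower and 3 higher and quantile normalization 15 and 1. A fit of only the groups compared gave 8 lower and 0 higher. Of all genes, 2.83% were lower without A10-FMT replicate 3, 13.2% without Con-FMT replicate 1 and 10.8% without Con-FMT replicate 2. The share was 8.32% with median centring, 9.79% with quantile normalization and 7.96% with only the groups compared.

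**Figure D5:**
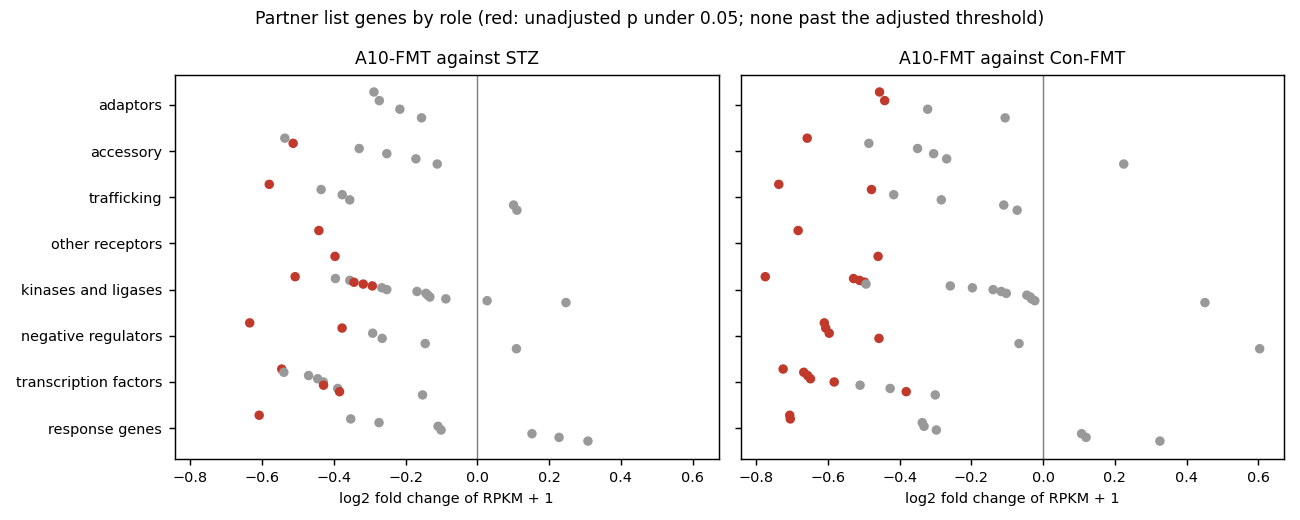
Log2 fold change of RPKM + 1 (horizontal axis) of the 56 tested partner genes, arranged by role, in both A10-FMT comparisons. Red points have an unadjusted p under 0.05, 14 in the left panel and 23 in the right, all of them left of 0.

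Elsewhere few partner genes stood out, and 0 of 56 passed the adjusted threshold in limma in any of the comparisons. In A10 against Con, 6 (10.7%) were higher and 0 lower at an unadjusted p under 0.05, beside the 3.56% and 1.68% of all genes, and these fell to 3 without A10 replicate 3. Il12b, a subunit of interleukin-12, measured 2.82, 1.87 and 2.19 RPKM in A10 against 0.75, 1.17 and 0.57 in Con. This is a log2 difference of 0.85 ± 0.17, with an adjusted p of 0.158 in limma. Hsp90b1, the chaperone that folds Toll-like receptors, measured 549, 440 and 603 RPKM against 249.6, 350 and 314. Its log2 fold change was 0.80 ± 0.17, with an adjusted p of 0.19 in limma. For both genes the A10 libraries lay above all Con libraries, as for 12 of the 56 tested partner genes, while 3 of 56 lay below. The share over all genes was not counted. Socs1, a brake on cytokine signalling, measured 12.7, 12.9 and 16.2 RPKM against 6.39, 10.4 and 6.19 (0.81 ± 0.25). Irf7, the interferon regulatory factor used by Tlr7 and Tlr9, measured 93.0, 43.6 and 276 RPKM against 50.0, 36.7 and 30.7 (1.42 ± 0.47), and the 276 belongs to the A10 library with 27.6 RPKM of Tlr7. In the interaction of STZ and AOS, 369 of the 12905 genes tested reached an unadjusted p under 0.05 in limma. The partner genes that did so were Il12b (-0.73 ± 0.24), Irf7 (-1.45 ± 0.66), Hsp90b1 (-0.50 ± 0.24) and Lbp (1.22 ± 0.44), a carrier of lipopolysaccharide, each with an adjusted limma p of 1. In STZ against Con these were Lgmn (0.47 ± 0.15), Lbp (-0.88 ± 0.31) and Hsp90b1 (-0.42 ± 0.17), in STZ-A10 against STZ Tlr11 (0.40 ± 0.15), and in Con-FMT against STZ Ccl3, a chemokine (0.56 ± 0.21), and Cd36, a co-receptor of Tlr2 (-0.40 ± 0.16).

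The receptors varied together across libraries to different degrees. As a description over libraries that share groups and differ in globin share, the Pearson r of log2(RPKM + 1) was 0.94 for Tlr6 with Tlr9, 0.93 for Tlr1 with Tlr6, where shared reads may contribute, and 0.91 for Tlr3 with Tlr9. Tlr8 had r from -0.03 (Tlr1) to 0.56 (Tlr13) with the other receptors and Tlr13 from 0.14 (Tlr1) to 0.56 (Tlr8), with 0.53 and 0.50 for Tlr4. Pairs without Tlr8 and Tlr13 ran from 0.57 (Tlr1 with Tlr7) upwards, so there was no sharp boundary. The gene most like each receptor among the other 12904 tested was picked as the largest r over 18 libraries. For Tlr1 these were Cd37 (0.99), a B cell tetraspanin, Slc44a2 and Dennd1c, for Tlr6 Xpo6 (0.98), Kri1 and Rassf5, and for Tlr2 Nagpa (0.96), Ctsa and Tmbim6. Tlr9 was closest to Man2a1 (0.96), Trak1 and the lymphoid factor Irf4, Tlr3 to Usp40 (0.94), Cplane1 and Cep68, and Tlr4 to Zfp106 (0.92), Arfgef1 and Tm9sf3. Tlr7 was closest to Trafd1 (0.89), Oasl1 and Tor3a, Tlr13 to Gm5483 (0.89), the chemokine Ccl6 and Ifitm2, and Tlr8 to Pira6 (0.73), Treml4 and Arl15. Leaving out the 2 libraries farthest from the receptor's median changed these 9 leading values to between 0.76 (Tlr13) and 0.96 (Tlr1), and taking each library relative to its group mean to between 0.84 (Tlr8) and 0.99 (Tlr1).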

How the data were processed

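Spleen libraries were poly(A)-enriched and sequenced by the authors. The deposited table holds RPKM per gene, made by the authors with SOAPaligner per the methods. The submitters' processing notes name Bowtie 0.12.2 and the build mm10 (GRCm38), and which aligner made the table could not be settled. Sums of RPKM per library ran from 673221 to 884539. No counts are given, so depth is unknown and counting error could not be given. Of 19326 lines, 6 with 3 repeated names were left out, and 0 columns were left without a sample.

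Group differences were tested on log2(RPKM + 1) by limma-trend (limma 3.58.1, R 4.3.3), using 12905 genes with an RPKM of at least 1 in at least 3 libraries. The fit took all 18 libraries, 1 coefficient for each group and no further term. P-values were two-sided and adjusted by the Benjamini-Hochberg method over all genes tested, with a threshold of 0.05. The fold changes are on this scale, which understates the change of low genes. The study used DEGseq, which takes no spread between replicates.

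The members, the partner list and the marker lists were chosen with earlier results of these data known. Named genes are all members, the partner genes past the adjusted threshold or, per comparison, the 4 with the smallest unadjusted p under 0.05, and the 3 genes with the highest Pearson r to each member with a mean of at least 1 RPKM. Of the partner list, 60 of 61 genes were in the table and 56 were tested. Positions are from GENCODE M21 by symbol. Alternatives were another pseudocount, filters, scalings and limma settings, a replicate block, and leaving out each library. Removing globin genes together with A10-FMT replicate 3 was added after the data were seen.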

Additional observations from a re-analysis of the deposited data

How the results depend on the processing

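The table gives no counts, so low genes such as Tlr5 carry an unknown counting error, and with 3 libraries per group a single library decided several values. A fold change smaller than its standard error under both settings was given no direction. Array weights, whose estimation stopped before convergence, raised the members past the adjusted threshold from 0 to 2 (STZ against Con), 5 (A10 against Con), 4 (STZ-A10 against STZ), 5 (A10-FMT against STZ), 3 (Con-FMT against STZ), 6 (A10-FMT against Con-FMT) and 1 (interaction), and the partner genes from 0 to 39, 26, 17, 26, 29, 40 and 6. In the same order, 7828, 4794, 3488, 6663, 5009, 8512 and 1969 of all 12905 genes passed under these weights. The raised counts are therefore no trait of the receptors or the partner genes. The same weights turned Tlr8 to 0.13 (STZ against Con) and 0.22 (A10 against Con), Tlr13 to 0.15 (A10 against Con) and -0.32 in STZ-A10 against STZ, and, in the interaction, Tlr5 to -0.16, Tlr8 to -0.26 and Tlr13 to -0.47. The cause was not tested. Tlr4 turned to 0.015 in A10-FMT against STZ under quantile normalization, and in A10-FMT against Con-FMT to 0.17 under quantile normalization and 0.11 under median centring. Leaving out each library moved Tlr1 in A10-FMT against STZ from -0.78 to 0.0025, and removing globin genes as well as A10-FMT replicate 3 gave 0.027. In A10-FMT against Con-FMT, leaving out each library gave 0 to 3 members and 0 to 23 partner genes past the adjusted threshold, the upper values without A10-FMT replicate 2. In every other comparison each of those counts stayed at 0. Libraries with the same replicate number deviated together with r from -0.39 to 0.57, and in no comparison did every pair exceed 0.1, so the numbers were not taken to pair the libraries. With a replicate block, 0 members and 0 partner genes passed the adjusted threshold in every comparison. There 3 and 4 members reached an unadjusted p under 0.05 in A10-FMT against STZ and against Con-FMT, beside 15.5% and 20.7% of all genes lower.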
